A study of Mus musculus with 4 samples.

Results

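The 8 genes described here encode molecules through which myeloid-derived suppressor cells (MDSCs) meet T cells: the PD-1 ligands Cd274 and Pdcd1lg2, the CD28 and CTLA-4 ligand Cd80, the galectins Lgals3 and Lgals9, the galectin-9 receptor Havcr2, the cytokine Il10 and the cytokine receptor chain Il4ra. They were taken by symbol from the 53465 genes of the count table, each symbol matched 1 row, and all 8 had enough reads to be tested. MDSCs are myeloid precursors that expand with a growing tumor and hold back T cells. They came from the spleens of young male BALB/c mice carrying 4T1 tumors, a transplantable mammary carcinoma line, and were isolated with beads against Gr-1, an epitope of Ly-6G and Ly-6C. The control group (replicates 1 and 2) received medium alone and the EGCG treatment group (replicates 1 and 2) received EGCG, a green tea catechin, at 5 μg/mL, each for 6 h in culture. All mice bore tumors, none of the libraries came from healthy mice, and no source says if the 2 libraries of each group stem from separate mice or wells, so p values measure only the spread between these libraries. The labels place the harvest at day 21 after tumor injection, whereas the study's methods give an earlier day.

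T cells need a second signal besides their antigen receptor, and the B7 family on myeloid cells supplies it in either direction. CD80 and CD86 activate through CD28 and inhibit through CTLA-4, while PD-L1 (Cd274) and PD-L2 (Pdcd1lg2) bind PD-1 and dampen the antigen receptor signal. Galectins are lectins that cross-link glycans on surface receptors. Galectin-9 binds TIM-3 (Havcr2), which exhausted T cells and also myeloid cells carry, and galectin-3 binds N-glycans of the T cell receptor complex. IL-10 lowers antigen presentation and inflammatory cytokines, and the IL-4 receptor alpha chain (Il4ra) is the shared entry of IL-4 and IL-13 signals, used as a marker of suppressive MDSCs in mice.

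The 4 libraries held between 17767318 and 18390385 counts on genes. Of the genes listed, 14682 passed the filter on low counts, and each was tested for a difference between the groups with the quasi-likelihood method of edgeR, with p values adjusted by Benjamini-Hochberg. Expression is given as CPM (counts per library size, with TMM scaling), and log2 fold changes are EGCG minus control with a standard error (SE). The exact permutation test of a single gene cannot go below p = 0.333 with 2 libraries against 2. The 12 neutrophil markers, among them S100a8, S100a9 and Ly6g, summed to between 59459 and 79626 CPM.

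Expression of the PD-1 ligands and of Havcr2 was lower in both EGCG libraries than in both control libraries, by 30.3% for Pdcd1lg2, 21.6% for Havcr2 and 17.0% for Cd274 in the fit. Cd80 was lower by 16.7% with an interval that included 0, and Lgals3, Lgals9, Il4ra and Il10 had log2 fold changes between -0.08 and 0.04. None of the differences passed the threshold: 0 of the 8 genes had an adjusted p under 0.05 by edgeR's quasi-likelihood test, against 0.150% of all tested genes (22 of 14682). By DESeq2, 0 of the 5 genes with an adjusted p passed, and Pdcd1lg2, Cd80 and Il10 were given none. At an unadjusted p under 0.05, 3 of the 8 genes were lower (Cd274, Pdcd1lg2 and Havcr2) and 0 were higher, whereas 7.02% of all tested genes were lower and 5.22% higher at that level. Both EGCG libraries lay below both control libraries for 4 of the 8 genes, against 21.2% of all tested genes, and above them for 1 of the 8, against 21.5%. The median log2 fold change of the 8 genes was -0.17 and that of all tested genes was 0.0032. Since RNA was taken from a cell population, fewer cells of a type and less RNA per cell cannot be told apart in any of these values.

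**Figure D1:**
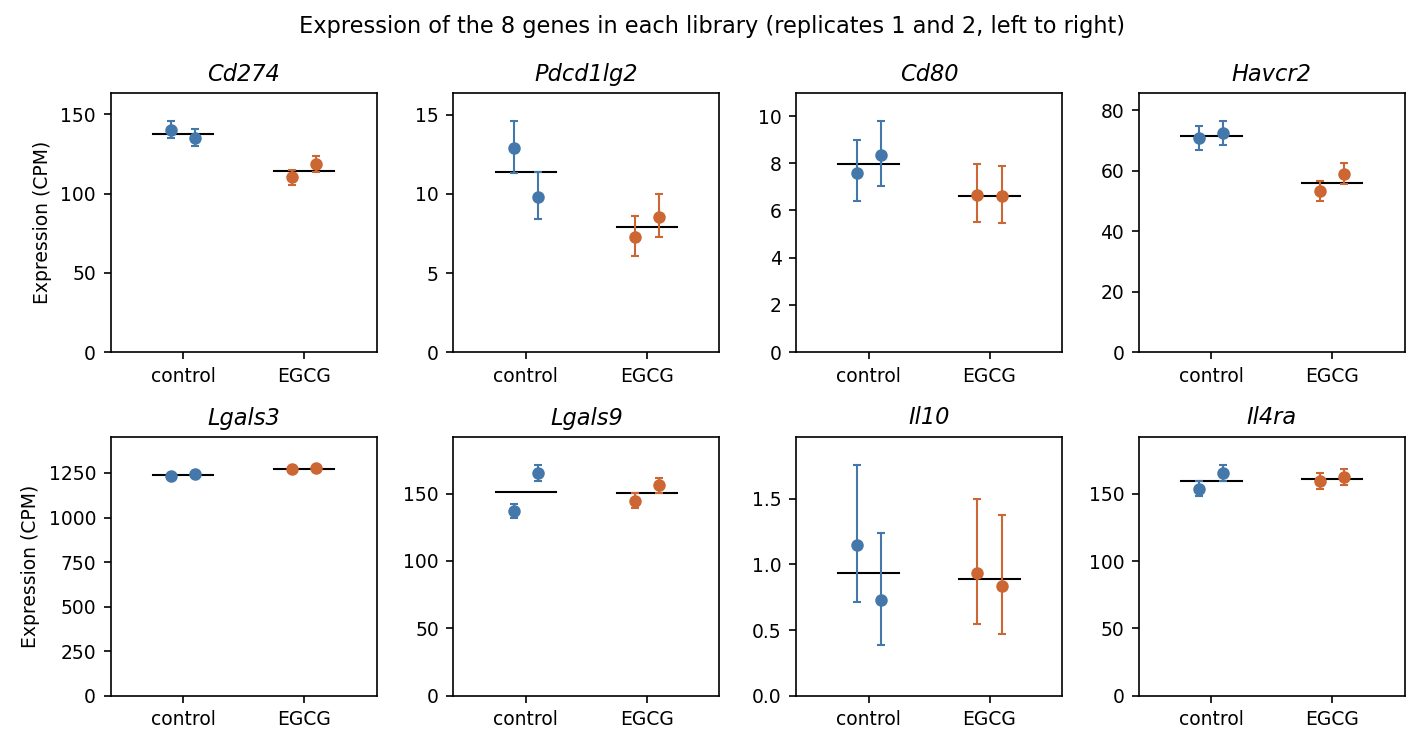
Expression of the 8 genes (y axis, CPM from 0) in the control and EGCG libraries, with 1 point per library, a 95% Poisson interval of its count and a line at the group mean. Cd274, Pdcd1lg2, Cd80 and Havcr2 lie lower in both EGCG libraries than in both control libraries, while the groups overlap for Lgals9, Il10 and Il4ra.

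The genes of the PD-1 ligands lie next to each other on chromosome 19 of GRCm38 and are read in the same direction. Cd274 (ENSMUSG00000016496) spans chr19:29367455-29388095 and Pdcd1lg2 (ENSMUSG00000016498) spans chr19:29410919-29471161, both on the plus strand. The 300 bases around their RefSeq start sites (250 before and 50 after, GRCm38.p6) are shown because the genes are neighbours and their counts lay in one direction. Capitals mark matches on either strand to the STAT6 pattern TTCNNNNGAA or to the NF-kB consensus.
Cd274: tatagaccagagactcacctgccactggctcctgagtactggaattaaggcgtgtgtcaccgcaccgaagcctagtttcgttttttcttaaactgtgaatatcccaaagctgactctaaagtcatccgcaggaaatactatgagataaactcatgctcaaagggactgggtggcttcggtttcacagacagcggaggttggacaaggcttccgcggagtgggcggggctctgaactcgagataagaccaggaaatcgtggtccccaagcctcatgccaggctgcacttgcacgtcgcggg
Pdcd1lg2: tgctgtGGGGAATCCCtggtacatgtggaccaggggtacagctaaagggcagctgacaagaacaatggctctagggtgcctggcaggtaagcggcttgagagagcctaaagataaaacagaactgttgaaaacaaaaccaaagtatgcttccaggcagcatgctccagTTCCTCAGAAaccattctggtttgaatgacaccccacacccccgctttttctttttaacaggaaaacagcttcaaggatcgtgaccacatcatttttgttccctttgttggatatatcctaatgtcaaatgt
The Cd274 stretch is chr19:29367188-29367487 and the Pdcd1lg2 stretch is chr19:29410669-29410968. The Pdcd1lg2 promoter held 1 match to the NF-kB consensus at -244 and 1 to the STAT6 pattern at -82 from the start site, and these do not overlap. The Cd274 stretch held no match to these patterns, to the STAT pattern GAS (TTCNNNGAA) or to the interferon response pattern ISRE (GAAANNGAAA). Among 32851 mouse promoters of the same length, 6.95% held the STAT6 pattern, 8.46% the NF-kB consensus, 8.30% the GAS pattern and 3.44% the ISRE pattern. A match describes letters only, and binding was not measured.

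Cd274, which encodes PD-L1, was at 140.2 and 135.2 CPM in control replicates 1 and 2 and at 110.2 and 118.4 CPM in EGCG replicates 1 and 2. The groups did not overlap, and the EGCG libraries differed from each other by more than the control libraries did. The means were 137.7 ± 3.52 CPM (SD, n = 2) in the control group and 114.3 ± 5.76 CPM (SD, n = 2) in the EGCG treatment group. The log2 fold change was -0.27 (SE 0.08, 95% interval from -0.43 to -0.11), with an unadjusted p of 0.00319 and an adjusted p of 0.188 by edgeR. Its direction was the same under 10 of 10 alternatives of filter, scaling, test and correction, with adjusted p from 0.0717 to 0.659. It also held with each library left out, at log2 fold changes from -0.32 to -0.22. Exons of Cd274 share 511 bases with AC119228.1, an antisense gene of GENCODE M21 whose own count was not analysed here, and the counting ignored strand.

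Pdcd1lg2, which encodes PD-L2, rested on fewer reads, with 235 and 176 counts in the control libraries and 132 and 153 counts in the EGCG libraries. These correspond to 12.9 and 9.84 CPM in control replicates 1 and 2 and to 7.27 and 8.55 CPM in EGCG replicates 1 and 2. The groups did not overlap, but control replicate 2 lay closer to EGCG replicate 2 than to control replicate 1. The log2 fold change was -0.52 (SE 0.17, 95% interval from -0.88 to -0.16), with an unadjusted p of 0.0078 and an adjusted p of 0.235 by edgeR. Its size rested on control replicate 1: without that library the log2 fold change was -0.31 with an unadjusted p of 0.133 by edgeR. The direction was kept under 10 of 10 alternatives, at adjusted p values of 0.132 to 0.685 under those other than DESeq2, which gave none. Without control replicate 2 the log2 fold change was -0.70, and its adjusted p of 0.0372 by edgeR then passed the threshold.

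The tested genes beside the pair, chosen after the values were seen as the nearest 2 on each side, had differing values. The groups did not overlap, with EGCG lower, for 2 of the 4, against 21.2% of all tested genes. Plgrkt, the neighbour before Cd274, had a log2 fold change of -0.07 (SE 0.08) and the groups overlapped. Insl6, next to it, was at only 1.44 CPM in control and 0.805 CPM in EGCG libraries, with -0.83 (SE 0.37), groups that did not overlap and an unadjusted p of 0.0429 by edgeR. Behind Pdcd1lg2, A930007I19Rik had -0.14 (SE 0.18) with overlapping groups. Ric1, the next gene, had -0.29 (SE 0.10), its groups did not overlap, and its unadjusted p was 0.0103 by edgeR.

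Cd80 (ENSMUSG00000075122, chr16:38455561-38496335, plus strand), the B7-1 ligand of CD28 and CTLA-4, was at 7.60 and 8.33 CPM in control replicates 1 and 2 and at 6.66 and 6.60 CPM in EGCG replicates 1 and 2. The groups did not overlap, yet the counts behind these values were only 118 to 149 a library, and each library's 95% Poisson interval overlapped those of the other group. The log2 fold change was -0.26 (SE 0.16, 95% interval from -0.61 to 0.09), with an adjusted p of 0.560 by edgeR. Cd86, the second ligand of the same receptors, was at 68.8 CPM in control and 67.1 CPM in EGCG libraries on average, with a log2 fold change of -0.04 (SE 0.08).

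Among 16 other genes of the B7 family and related ligands, 12 were tested, 0 passed the adjusted threshold by edgeR or, among the 7 it gave an adjusted p, by DESeq2, and 0 had an unadjusted p under 0.05. Their median log2 fold change was 0.006, with 6 below and 6 above 0. Vsir, which encodes the inhibitory ligand VISTA, had the highest CPM of the list, at 853.2 CPM in control and 902.8 CPM in EGCG libraries (log2 fold change 0.08, SE 0.08). The smallest unadjusted p values were 0.0783 for Tnfrsf14, the HVEM ligand of BTLA (-0.18, SE 0.09), and 0.170 for Fgl2, a secreted fibrinogen-like suppressor of T cells (-0.14, SE 0.10), both by edgeR. Btn1a1 had 0 counts in the 4 libraries, and Vtcn1 and Fgl1 had at most 1 count in any library. Of 10 TNF family costimulators, 7 were tested and 0 were called, with 0 at an unadjusted p under 0.05 and a median of 0.12. Tnfsf14 (LIGHT) had the highest CPM of that list, at 80.4 CPM in control and 87.2 CPM in EGCG libraries (0.12, SE 0.08). Fasl, the Fas ligand, was at 11, 10, 2 and 8 counts in control replicates 1 and 2 and EGCG replicates 1 and 2 (-1.05, SE 0.63).

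Havcr2 (ENSMUSG00000020399, chr11:46454935-46481255, plus strand) encodes TIM-3, which restrains myeloid cells and T cells that carry it. It was at 70.8 and 72.4 CPM in control replicates 1 and 2 and at 53.2 and 59.0 CPM in EGCG replicates 1 and 2. The control libraries were nearly equal and both lay above the EGCG libraries, with means of 71.6 ± 1.14 CPM (SD, n = 2) and 56.1 ± 4.09 CPM (SD, n = 2). Among the 8 genes it had the smallest p: the log2 fold change was -0.35 (SE 0.08, 95% interval from -0.53 to -0.17), with an unadjusted p of 0.000927 and an adjusted p of 0.120 by edgeR. It ranked 112 of the 14682 tested genes by p. Its adjusted p passed the threshold with library size in place of TMM scaling (0.0313, edgeR) and without EGCG replicate 2 (0.0270, edgeR). Without EGCG replicate 1 its log2 fold change was -0.28 with an adjusted p of 0.340, and the adjusted p lay between 0.0313 and 0.650 under 10 alternatives.

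Lgals9 (ENSMUSG00000001123, chr11:78962974-78984946, minus strand), the galectin that binds TIM-3, lay on the same chromosome but showed another pattern. It was at 137.2 and 165.4 CPM in control replicates 1 and 2 and at 144.6 and 156.0 CPM in EGCG replicates 1 and 2. The EGCG libraries lay between the control libraries, and the means were 151.3 ± 19.9 and 150.3 ± 8.06 CPM (SD, n = 2 each). The control libraries differed from each other by more than counting error allows (chi-square of 47.6). The log2 fold change was -0.0093 (SE 0.09, 95% interval from -0.20 to 0.18), and its sign turned with the library left out, from -0.13 without control replicate 1 to 0.13 without control replicate 2. Its 300 promoter bases on the minus strand, chr11:78984875-78985174 (RefSeq, GRCm38.p6), are set beside those of Havcr2, chr11:46454681-46454980, because receptor and ligand differed in their values. Capitals mark ISRE matches.
Lgals9: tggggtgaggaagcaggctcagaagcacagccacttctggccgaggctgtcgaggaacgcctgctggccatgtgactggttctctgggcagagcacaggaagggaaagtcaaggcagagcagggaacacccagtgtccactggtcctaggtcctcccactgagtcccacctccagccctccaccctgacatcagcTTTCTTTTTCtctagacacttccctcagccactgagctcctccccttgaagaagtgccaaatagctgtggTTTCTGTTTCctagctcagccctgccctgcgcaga
Havcr2: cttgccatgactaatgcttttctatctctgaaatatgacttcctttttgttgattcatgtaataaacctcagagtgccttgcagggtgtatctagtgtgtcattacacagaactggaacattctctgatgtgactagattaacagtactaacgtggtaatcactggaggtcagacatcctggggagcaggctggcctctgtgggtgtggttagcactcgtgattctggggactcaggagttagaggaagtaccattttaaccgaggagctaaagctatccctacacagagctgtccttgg
The Lgals9 promoter held 2 ISRE matches, at -55 and 15 from the start site, which do not overlap, and Havcr2 held no match to the 4 patterns. Lgals3 and Il4ra, whose groups differed little, also held matches: 2 to the STAT6 pattern and 1 to the NF-kB consensus in Lgals3, and 1 to the NF-kB consensus in Il4ra.

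Lgals3 (ENSMUSG00000050335, chr14:47367751-47386160, plus strand), which encodes galectin-3, had the highest expression of the 8 genes, also per kilobase. It was at 1231 and 1246 CPM in control replicates 1 and 2 and at 1270.0 and 1280 CPM in EGCG replicates 1 and 2. The groups did not overlap, with both EGCG libraries higher, but the log2 fold change was only 0.04 (SE 0.08, 95% interval from -0.12 to 0.20) with an adjusted p of 0.875 by edgeR. With library size in place of TMM scaling it was 0.0063. A change of more than 1.5-fold in either direction lay outside the intervals of Lgals3, Lgals9 and Il4ra.

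Of 14 other galectins and galectin partners, 11 were tested and 0 were called by edgeR or, among 9 with an adjusted p, by DESeq2. At an unadjusted p under 0.05, 3 were lower with EGCG and 0 higher, against 7.02% and 5.22% of all tested genes. Mgat5, the Golgi enzyme that builds the branched N-glycans galectins bind, was at 42.7 and 43.0 CPM in the control and 35.6 and 37.1 CPM in the EGCG libraries (-0.24, SE 0.09, unadjusted p of 0.0186 by edgeR). Lgals8 (galectin-8) was at 49.9 and 51.1 CPM in the control and 42.7 and 45.2 CPM in the EGCG libraries (-0.20, SE 0.09, unadjusted p of 0.0350 by edgeR). Lgals3bp, a secreted glycoprotein that binds galectin-3, was at 30.8 and 24.9 CPM in the control and 17.5 and 26.1 CPM in the EGCG libraries, so its groups overlapped (-0.36, SE 0.16), and it passed the threshold only when EGCG replicate 2 was left out (-0.67, adjusted p of 0.00121 by edgeR). Lgals1 was at 119.8 CPM in control and 119.2 CPM in EGCG libraries (-0.0079, SE 0.07). Ptprc, the pan-leukocyte marker CD45 and a galectin-bound glycoprotein, had the highest CPM of this list (-0.02, SE 0.08). Lgals2 and Lgals12 had 0 counts in the 4 libraries.

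Several receptors on which these ligands act belong to T cells. Of 18 checkpoint receptors and partners, 17 were tested and 0 were called by edgeR or, among only 4 with an adjusted p, by DESeq2. At an unadjusted p under 0.05, 1 gene was higher, against 5.22% of all tested genes. That gene was Ctla4, at 1.42 and 2.57 CPM in control replicates 1 and 2 and 3.08 and 3.8 CPM in EGCG replicates 1 and 2, from 26, 46, 56 and 68 counts. Its log2 fold change was 0.79 (SE 0.29, adjusted p of 0.309 by edgeR). Pdcd1, the PD-1 gene, was at 2.57 and 1.56 CPM in the control and 2.53 and 3.58 CPM in the EGCG libraries (0.56, SE 0.30), with overlapping groups. Of 10 T cell markers 8 had log2 fold changes above 0, while Cd4 (-0.06, SE 0.20) and Cd8a (-0.25, SE 0.23) lay below 0. The 10 markers summed to 109.0 and 123.2 CPM in the control and 127.6 and 129.4 CPM in the EGCG libraries. Most of that sum was Cd3d, at 75.1 and 85.8 CPM in the control and 87.6 and 90.1 CPM in the EGCG libraries. The part of T cells in the values of Ctla4 and Pdcd1 was not tested. Sirpa, the myeloid receptor of CD47, had the highest CPM of this list (-0.06, SE 0.08).

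Il10 (ENSMUSG00000016529, chr1:131019845-131024974, plus strand) was the lowest of the 8 genes per kilobase, with 21 and 13 counts in control replicates 1 and 2 and 17 and 15 counts in EGCG replicates 1 and 2. The EGCG libraries lay between the control libraries, at 0.936 and 0.839 CPM against 1.15 and 0.727 CPM. The log2 fold change was -0.08 (SE 0.42) and its 95% interval ran from -0.97 to 0.81, so that a 1.5-fold difference in either direction lay within it. The sign turned to 0.29 when control replicate 1 was left out.

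Both chains of the IL-10 receptor were read in the same cells. Il10ra was at 127.4 CPM in control and 121.2 CPM in EGCG libraries (log2 fold change -0.07, SE 0.08) and Il10rb at 108.8 and 117.4 CPM (0.11, SE 0.08). Of 17 genes of the IL-10 receptor and of other suppressive or regulatory cytokines, 12 were tested, 0 were called by edgeR or, among 7 with an adjusted p, by DESeq2, and 0 had an unadjusted p under 0.05. Il1rn, the IL-1 receptor antagonist, had the highest level, at 405.7 CPM in control and 381.3 CPM in EGCG libraries (-0.09, SE 0.08). Tgfb1 was at 301.1 and 291.4 CPM in the control and 256.4 and 308.8 CPM in the EGCG libraries, with overlapping groups (-0.07, SE 0.09). Il6 was at 9.73 and 12.4 CPM in the control and 9.09 and 9.56 CPM in the EGCG libraries, which did not overlap (-0.25, SE 0.16, unadjusted p of 0.135 by edgeR). The smallest unadjusted p values were 0.0679 for Tgfb2, which had 14 counts or fewer in each library, and 0.133 for Il27 (-0.29, SE 0.18), both by edgeR.

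Il4ra (ENSMUSG00000030748, chr7:125552120-125579474, plus strand) was at 154.0 and 165.6 CPM in control replicates 1 and 2 and at 159.8 and 162.4 CPM in EGCG replicates 1 and 2. The EGCG libraries again lay between the control libraries. The log2 fold change was 0.01 (SE 0.07, 95% interval from -0.15 to 0.17, adjusted p of 0.971 by edgeR), and it turned to -0.02 with library size only and to -0.035 without control replicate 1. Exons of Il4ra share 571 bases with the antisense gene Gm44876, which had at most 1 count in any library.

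The genes of the IL-4 receptor pathway included receptor chains, signalling proteins and genes that IL-4 is known to induce in macrophages. Of 21 listed genes 19 were tested and 0 were called by edgeR (median log2 fold change -0.12). At an unadjusted p under 0.05, 3 were lower and 1 was higher, against 7.02% and 5.22% of all tested genes. Stat6, the transcription factor of the pathway, was at 525.5 and 530.9 CPM in the control and 533.4 and 540.8 CPM in the EGCG libraries (0.02, SE 0.07). Il13ra1, which pairs with Il4ra in the type II receptor, was at 29.0 and 31.1 CPM in the control and 35.6 and 35.1 CPM in the EGCG libraries (0.23, SE 0.09, unadjusted p of 0.0275 by edgeR). Jak2, a kinase of the type II receptor, had -0.21 (SE 0.08, unadjusted p of 0.0231 by edgeR), whereas Jak1 had -0.0067 (SE 0.08). Ptpn6, the phosphatase SHP-1, had the highest CPM of the list, at 858.3 CPM in control and 899.0 CPM in EGCG libraries (0.07, SE 0.08).

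Among the genes induced by IL-4 in macrophages, Mrc1, the mannose receptor CD206, was at 30.0 and 22.7 CPM in the control and 15.8 and 18.4 CPM in the EGCG libraries. Both control libraries were above both EGCG libraries (-0.63, SE 0.14), and the adjusted p was 0.0870 by edgeR and 0.0463 by DESeq2. It also passed by edgeR without control replicate 2 (0.000232) or EGCG replicate 2 (0.000343). Retnla, a secreted resistin-like protein, was at 7.33 and 11.1 CPM in the control and 6.28 and 4.58 CPM in the EGCG libraries (-0.76, SE 0.22, adjusted p of 0.196 by edgeR), and it passed without control replicate 1 (0.00895) or EGCG replicate 1 (0.00372). Chil3, another such gene, was at 286.7 and 320.2 CPM in the control and 329.5 and 283.6 CPM in the EGCG libraries, with overlapping groups (0.015, SE 0.09).

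The 3 chemokines of the list that IL-4 induces had groups that overlapped, except for Ccl17. Ccl17 had 23 and 24 counts in the control and 19 and 8 counts in the EGCG libraries (-0.79, SE 0.43, unadjusted p of 0.0890 by edgeR). Ccl22 was at 10.7 and 12.4 CPM in the control and 9.53 and 11.9 CPM in the EGCG libraries (-0.11, SE 0.15). Ccl24 was at 88.4 and 59.2 CPM in the control and 50.6 and 68.7 CPM in the EGCG libraries (-0.31, SE 0.16, adjusted p of 0.461 by edgeR), and it passed without control replicate 2 (0.00253) or EGCG replicate 2 (0.00109).

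**Figure D2:**
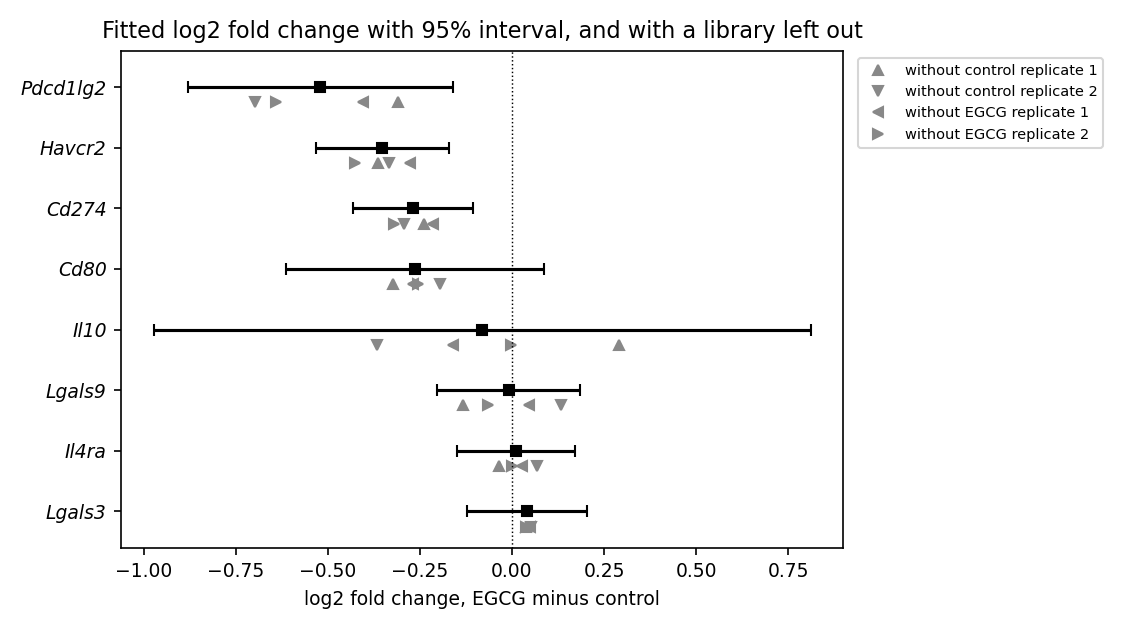
Log2 fold change of each gene (x axis, EGCG minus control, squares with 95% intervals from edgeR) and the values with 1 library left out (grey triangles). The intervals of Pdcd1lg2, Havcr2 and Cd274 lie below 0, and leaving out control replicate 1 moved Pdcd1lg2 from -0.52 to -0.31.

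Enzymes and mediators through which MDSCs restrain T cells were compared as a group of 22 genes, of which 20 were tested. By edgeR 0 were called, with a median log2 fold change of -0.02. At an unadjusted p under 0.05, 5 were lower (among them Slc7a2, Slc7a11, Slc7a1 and Hmox1) and 2 were higher (S100a8 and Cyba). Of all tested genes, 7.02% were lower and 5.22% higher at that level. Slc7a2, a transporter of cationic amino acids, had the smallest p and was at 38.0 and 22.7 CPM in the control and 14.9 and 17.5 CPM in the EGCG libraries (-0.91, SE 0.18, adjusted p of 0.0717 by edgeR). Control replicate 1 stood above control replicate 2, and with library size only the adjusted p was 0.00755 by edgeR. Slc7a2 also passed when control replicate 2 or either EGCG library was left out, but not without control replicate 1. S100a8 passed by edgeR without control replicate 2 or EGCG replicate 2, and Hmox1 without EGCG replicate 2. Slc7a11, the cystine transporter, was at 223.8 and 216.5 CPM in the control and 177.9 and 186.5 CPM in the EGCG libraries (-0.27, SE 0.07, adjusted p of 0.162 by edgeR). Nos2 had 14 to 23 counts a library (-0.04, SE 0.41). S100a9, an alarmin of neutrophils, had the highest CPM of the list and a log2 fold change of 0.21 (SE 0.12), which passed by edgeR only without control replicate 2 (adjusted p of 0.0260).

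Known inducers and regulators of PD-L1 were set beside Cd274. All 21 were tested and 0 were called by edgeR or, among 20 with an adjusted p, by DESeq2 (median log2 fold change 0.02). At an unadjusted p under 0.05, 2 were lower and 0 were higher, against 7.02% and 5.22% of all tested genes. Stat2, which carries type I interferon signals, was at 62.2 and 73.0 CPM in the control and 52.0 and 56.9 CPM in the EGCG libraries (-0.31, SE 0.09, adjusted p of 0.221 by edgeR, 0.0449 without control replicate 1). Cmtm4, a membrane protein that protects PD-L1 from degradation, was at 12.5 and 9.33 CPM in the control and 7.33 and 7.94 CPM in the EGCG libraries (-0.52, SE 0.17, adjusted p of 0.242 by edgeR, 0.0366 without control replicate 2). Cmtm6, its better known relative, was at 336.1 and 349.3 CPM in the control and 352.0 and 373.9 CPM in the EGCG libraries (0.08, SE 0.07). The transcription factors had smaller values, namely 0.03 for Irf1 (SE 0.08), -0.02 for Stat3 (SE 0.07) and 0.07 for Rela (SE 0.08). Ifngr1, the interferon gamma receptor chain, had the highest CPM of the list (0.06, SE 0.09).

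**Figure D3:**
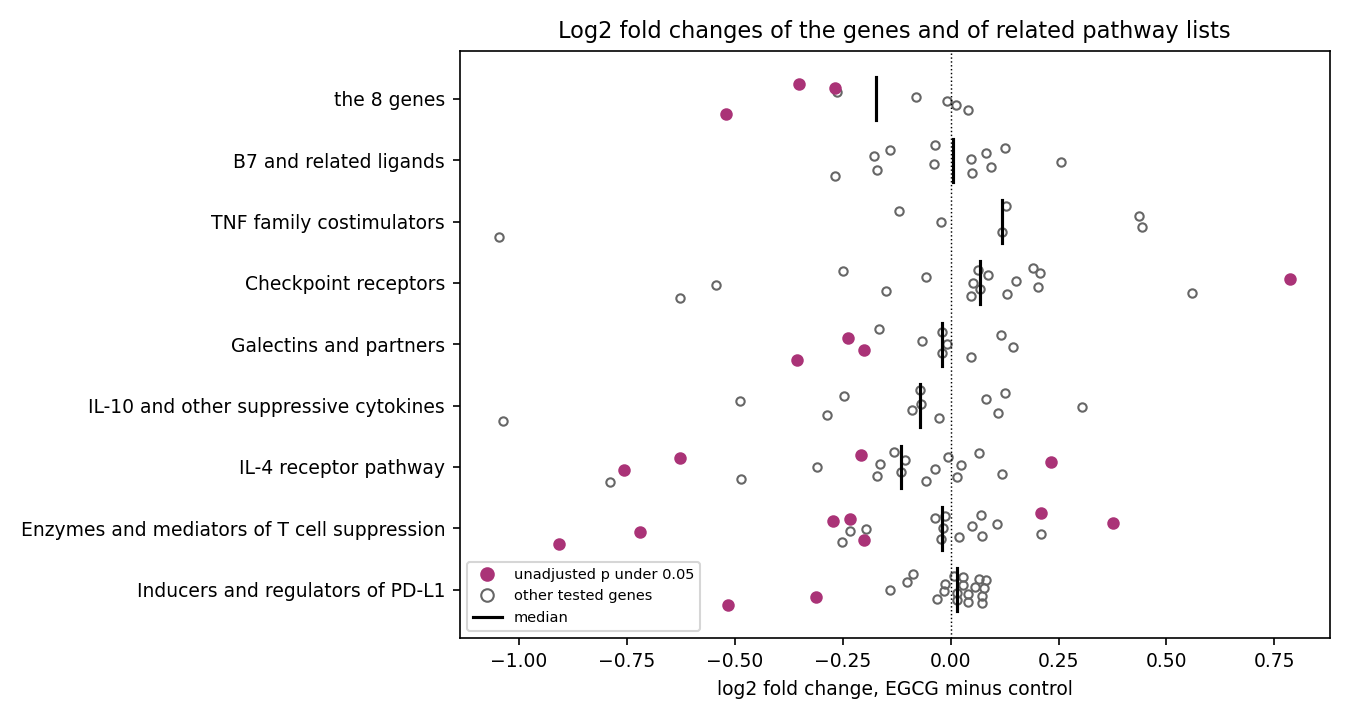
Log2 fold changes (x axis, EGCG minus control) of the 8 genes and of the tested genes of 8 related lists, with 1 point per gene, a bar at the median and filled points for an unadjusted p under 0.05; height within a row carries no value. The median of the 8 genes is -0.17, and the medians of the lists lie between -0.12 and 0.12.

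Per kilobase of exon (RPKM, the CPM divided by exonic length), the 8 genes covered a wide range of levels in the same cells. Lgals3 stood first, with a mean of 676.4 RPKM over the 4 libraries, above 99.6% of the tested genes. Lgals9 followed with 70.6 RPKM and Cd274 with 34.8 RPKM. Il4ra was at 26.7 RPKM and Havcr2 at 23.5 RPKM, and these 2 neighbours in the order did not separate, since the control libraries of Havcr2 lay within the range of Il4ra. Pdcd1lg2 was at 4.91 RPKM, Cd80 at 1.97 RPKM and Il10 at 0.697 RPKM. The libraries of all other neighbours in the order lay apart. Within the control group, Cd274 was at 38.0 RPKM against 5.78 RPKM for Pdcd1lg2.

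**Figure D4:**
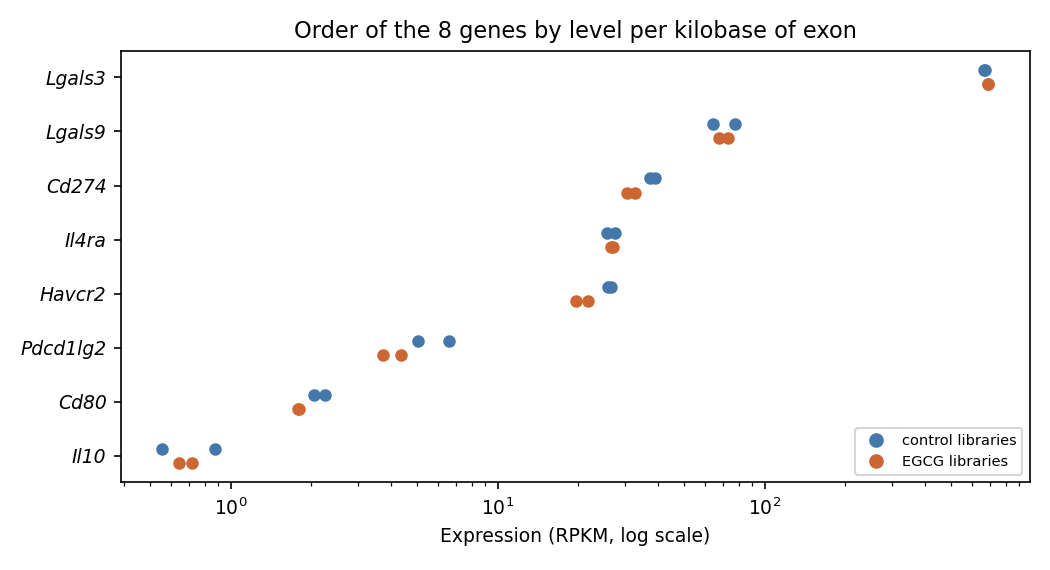
Level of the 8 genes per kilobase of exon (x axis, RPKM on a log scale) in the control and EGCG libraries, 1 point per library. Lgals3 is the highest at 676.4 RPKM on average and Il10 the lowest at 0.697 RPKM.

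The tested genes with the most similar pattern over the 4 libraries were found by the root mean square difference of centred log2 CPM, among genes with at least 100 counts in each library. For Cd274 these were Sptan1 (0.00793) and Car5b (0.00954), for Pdcd1lg2 Dse (0.0311) and Nrp2 (0.0392), and for Havcr2 Herc2 (0.0217) and Rps6kc1 (0.0237). For Cd80 they were Fcgr2b (0.0071) and Slc9a9 (0.0121), and for Lgals9 Tap1 (0.00498) and Zfp330 (0.0111). For Lgals3 they were Elovl1 (0.00426) and Sap18b (0.00519), for Il4ra Ncoa7 (0.00281) and Tbc1d10a (0.00558), and for Il10 Nemp1 (0.0482) and Nup133 (0.0526). With only 4 libraries such likeness is common: 426 of 9273 genes had a correlation over 0.95 with Cd274, and 343 with Havcr2.

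Genes that mark other cell types moved beside these values, although 0 of the markers named here passed the adjusted threshold. The 8 monocyte markers summed to 1543 and 1326 CPM in the control libraries and 1189 and 1244 CPM in the EGCG libraries, with 6 of 8 below 0, and the largest share of that came from Fn1 (-0.72, SE 0.16). Of 10 macrophage markers 8 lay below 0 (median -0.23), while their sum overlapped between the groups, from 1210 to 1315 CPM. The largest part of that sum was Slc40a1, which was higher in both EGCG libraries (667.6 and 695.2 against 561.1 and 624.1 CPM). All 7 tested endothelial markers lay below 0 (median -0.56), and their sum was 124.7 and 135.6 CPM in the control and 100.7 and 106.5 CPM in the EGCG libraries, Pecam1 making up most of the sum. Sums of eosinophil and platelet markers were lower in both EGCG libraries as well, from 756.6 to 896.4 against 919.6 to 1065 CPM and from 159.6 to 160.6 against 183.0 to 183.8 CPM. Itgb3 made up most of the platelet sum. The part of these cell types in the lower values of Cd274, Pdcd1lg2, Cd80 and Havcr2 was not tested. Sums of B cell markers were higher in both EGCG libraries (2062 and 2115 against 1853 and 1951 CPM). So were those of dendritic cells (68.6 and 73.2 against 65.8 and 62.5 CPM), although 6 of 10 dendritic cell markers lay below 0. The higher dendritic cell sum rested on Ccr7, at 41.7 and 46.6 CPM in the EGCG and 35.8 and 35.3 CPM in the control libraries. Marker sums of neutrophils, NK cells, basophils or mast cells, erythroid cells and epithelial or 4T1 cells overlapped between the groups. Krt14 and Esrp1 of the epithelial list and Klra8 of the NK cell list had 0 counts in the 4 libraries.

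**Figure D5:**
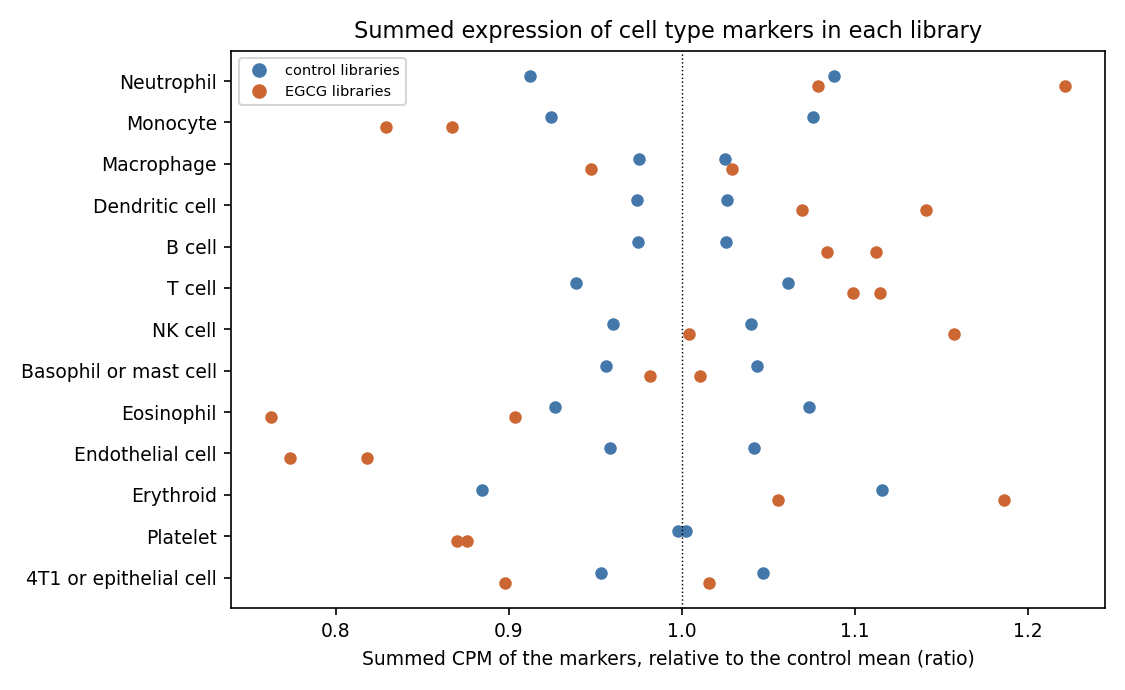
Summed CPM of the markers of 13 cell types in each library, divided by the mean of the control libraries (x axis, ratio). Monocyte, eosinophil, endothelial and platelet sums are lower in both EGCG libraries, and dendritic cell, B cell and T cell sums are higher. Itgb3 makes up most of the platelet sum, and the higher dendritic cell sum rests on Ccr7. Slc40a1 is the largest part of the macrophage sum and Cd3d of the T cell sum.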

How the data were processed

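RNA-seq counts of 4 libraries were used. Per the labels and the study's methods, the authors aligned reads with STAR 2.6.0c to GRCm38, counted reads with featureCounts 1.6.2 on Ensembl release 91, and deposited raw counts per gene, named as not stranded. From these, genes were filtered with filterByExpr (minimum count of 10), scaled by TMM and tested with edgeR 4.0.16 (legacy quasi-likelihood fit, no block), adjusted over 14682 genes at a threshold of 0.05. The SE is the log2 fold change divided by the square root of F. RPKM used exonic lengths from GENCODE M21 (53360 of 53465 identifiers matched). Promoters came from RefSeq, and 7 of the 8 genes matched (not Il10). The fit was first tested on simulated data.

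The members and gene lists were chosen with earlier results of these data known. Named genes are the 8 members and, per list, the genes called or otherwise the 2 with the smallest p, plus the highest in CPM, and for each member the 2 genes of most similar pattern; other list genes were added for their role after values were seen, and some list genes are not reported here. Alternatives were other filters, scalings and fits, DESeq2 1.42.0, a length correction, a replicate block and leaving out each library. Intervals of single libraries cover counting error only. R 4.3.3, pandas 2.3.3 and matplotlib 3.10.9 were used.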

Additional observations from a re-analysis of the deposited data

How the results depend on the processing

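Of the 8 genes, Cd274, Pdcd1lg2, Cd80, Havcr2 and Lgals3 kept their direction under each alternative and with each library left out. The sign of Il4ra turned with library size only (-0.0227). With a library left out, Il4ra ran from -0.035 to 0.0672, Lgals9 from -0.1335 to 0.1339 and Il10 from -0.3667 to 0.2914. The number of the 8 genes called was 1 (Havcr2) with library size only and 0 under the other alternatives; with a library omitted it ran from 0 to 1, namely Pdcd1lg2 without control replicate 2 and Havcr2 without EGCG replicate 2. Their median log2 fold change was -0.2685 with a minimum count of 50, where Il10 is not tested, -0.2077 with library size only, and from -0.2435 to -0.1596 with a library left out. At an unadjusted p under 0.05, 3 were lower under each alternative, and 2 without control replicate 1.

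Of all tested genes, 0 were called without the filter, 10 with a minimum count of 50, 151 with library size only, 11 with upper-quartile scaling, 63 with the robust fit, 64 with DESeq2 (of 7850 given an adjusted p) and 3 with the length correction, and from 77 to 354 with a library left out. Of the related pathway genes, 3 were called with library size only (Mrc1 and Slc7a2 among them), 1 with the robust fit (Mrc1), 1 with DESeq2 (Mrc1), and from 2 to 7 with a library left out. The cause of these shifts was not tested. The replicate block left 0 of the 8 genes called and moved all calls from 22 to 30. Same-numbered libraries had a correlation of deviations of 0.0336 over genes. With 2 libraries in each group, this value cannot tell if same-numbered libraries were paired. Depth limits Il10, which had at most 21 counts in any library.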
